A study of Homo sapiens with 12 samples.

Results

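The apolipoprotein L (APOL) genes APOL1, APOL2, APOL3, APOL4 and APOL6 were followed in OPM-1 cells, an established human multiple myeloma line, through lenalidomide treatment, RUNX inhibition and both together. These are 5 of the 38478 genes in the deposited expression table. APOL3 was picked on its rise with lenalidomide in these same data, and the other 4 genes were chosen by family name. The levels of APOL3 in DMSO-treated and lenalidomide-treated cells are therefore given as a description, and APOL3 was tested only in the comparison of LEN+AI-10-104 with AI-10-104, whose 6 samples were not those of the contrast it was picked on.

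Polyadenylated RNA was sequenced from 12 samples in 4 conditions of 3 samples each, all harvested after 48 h. Control cells received DMSO, the solvent. LEN cells received 0.1 µM lenalidomide, a drug that binds the ubiquitin ligase substrate receptor cereblon and directs the transcription factors IKZF1 and IKZF3 to degradation. AI-10-104 cells received 1 µM of AI-10-104, a RUNX inhibitor, and LEN+AI-10-104 cells received both compounds at the same concentrations. The comparisons asked what lenalidomide at this low dose did with and without RUNX inhibition. Levels are in RPKM, read counts scaled to gene length and to the total reads on genes of each library.

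The APOL genes encode membrane-active proteins that form a cluster on the long arm of chromosome 22, and most of them are known as interferon-induced genes in human cells. APOL1 carries a signal peptide and circulates in serum, where it is part of the complex that lyses African trypanosomes. The other members lack secretion and act inside the cell. APOL3 is known for remodelling membranes at the Golgi and for dissolving the membranes of cytosolic bacteria in interferon gamma-treated cells, and APOL6 for a BH3-like motif and for promoting cell death when overexpressed.

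In the GRCh38 assembly with GENCODE annotation the 5 genes lay within 619 kb of chromosome 22. APOL6 (ENSG00000221963, plus strand) was at 35648446 to 35668404 and was separated from the others by APOL5 and a gap of 411 kb. APOL3 (ENSG00000128284, minus strand) was at 36140329 to 36166177, followed by APOL4 (ENSG00000100336, minus strand) at 36189124 to 36204840. APOL2 (ENSG00000128335, minus strand) was at 36226209 to 36239954 and APOL1 (ENSG00000100342, plus strand) at 36253071 to 36267530. The gaps between these last 4 genes were 22.9, 21.4 and 13.1 kb. No exon of a member overlapped an exon of another gene. As relatives, the genes share short stretches of transcript: 4.85% of the 31-base stretches in APOL1 transcripts were also found in another APOL gene, against 4.04% for APOL2, 2.01% for APOL3, 1.16% for APOL4 and 0% for APOL6. With genes outside the family, 9.23% of the stretches of APOL1 were shared, 3.87% of those of APOL2, 0% of those of APOL3, 10.8% of those of APOL4 and 5.25% of those of APOL6. Reads from shared stretches could be split between genes.

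The libraries held 16352548 to 31386210 reads on genes, and the LEN+AI-10-104 libraries, at 16352548 to 20419807, were shallower than most of the others. AI-10-104 replicate 2 stood apart from its group, with chi-square values per degree of freedom of 7.4 and 9.64 against the other AI-10-104 samples, which gave 2.82 against each other, and values without it stand beside the results. All 9 plasma cell markers were detected, among them SDC1 at a mean of 146 RPKM, TNFRSF17 at 180 RPKM and IRF4 at 207 RPKM over the 12 samples. Their sum was 4500 to 4750 RPKM with DMSO, 4380 to 4530 with LEN, 4920 to 5160 with AI-10-104 and 4270 to 4510 with both. Markers of other cells were at or near 0: the B cell genes summed to at most 0.0361 RPKM in any sample, the T or NK cell genes to at most 0.551 RPKM, the myeloid genes to at most 0.474 RPKM and the fibroblast or epithelial genes to at most 0.0166 RPKM. Of the endothelial genes, VWF and CDH5 were at 0 and PECAM1 averaged 1.22 RPKM. The sum of the 3 genes was thus PECAM1 alone. It was 0.932 to 0.95 RPKM with DMSO, 1.11 to 1.37 with LEN, 1.21 to 1.47 with AI-10-104 and 1.32 to 1.45 with both. Of all genes averaging 0.5 RPKM or more, 9.42%, 13.1% and 18.1% lay wholly above DMSO with LEN, AI-10-104 and both. PECAM1 was lowest with DMSO, as was APOL3, which was picked on its DMSO and LEN levels. Any relation between these 2 genes was not tested. In bulk RNA, fewer cells expressing a gene and less RNA per cell cannot be told apart.

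The members differed far more from each other than between conditions, and their order was the same in all 12 samples. APOL2 was the highest at 17.5 to 23.2 RPKM, above APOL6 at 8.94 to 13.3 RPKM and APOL3 at 1.33 to 3.09 RPKM. APOL1 followed at 0.0812 to 0.333 RPKM and APOL4 at 0 to 0.0379 RPKM. No neighbours in this order overlapped over the 12 samples. In DMSO-treated cells, 84.3% of the 21025 genes above 0 were lower than APOL2, 75.1% were lower than APOL6 and 55.5% were lower than APOL3. For APOL1 this share was 37.7% and for APOL4 11.4%. The sum of the family was 30.9 ± 1.28 RPKM (SD, n = 3) in DMSO-treated cells, of which APOL2 made up 62.8%, APOL6 31.9% and APOL3 4.73%. APOL5, which lies between APOL6 and APOL3, had 0 reads in all 12 libraries, below a floor of 3 reads.

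APOL3, the Golgi and antibacterial member, measured 1.69, 1.38 and 1.33 RPKM in the 3 DMSO samples and 2.8, 2.66 and 2.96 RPKM in the 3 LEN samples. It measured 1.86, 2.11 and 2.11 RPKM in the AI-10-104 samples and 3.09, 2.87 and 2.95 RPKM in the LEN+AI-10-104 samples. These values rested on 162 to 487 reads per library. The DMSO samples were the lowest, the AI-10-104 samples stood between, and the LEN and LEN+AI-10-104 samples were the highest and overlapped each other. The means were 1.47 ± 0.198, 2.8 ± 0.151, 2.03 ± 0.147 and 2.97 ± 0.113 RPKM (SD, n = 3) in the order DMSO, LEN, AI-10-104 and LEN+AI-10-104.

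APOL6, the member with the BH3-like motif, measured 10.0, 9.75 and 9.79 RPKM in the DMSO samples and 13.3, 12.4 and 12.3 RPKM in the LEN samples. In the AI-10-104 samples it was 9.05, 9.51 and 8.94 RPKM, and in the LEN+AI-10-104 samples 13.2, 12 and 11.8 RPKM. All 6 samples with lenalidomide lay above all 6 without it, as for 2.25% of all genes tested. The AI-10-104 samples were the lowest and did not overlap the DMSO samples, by a narrow margin, as for 10.2% of all genes tested. Mean levels were 9.86 ± 0.142 RPKM with DMSO, 12.7 ± 0.572 with LEN, 9.17 ± 0.303 with AI-10-104 and 12.3 ± 0.762 with both (SD, n = 3).

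APOL2, an intracellular member whose function is less well known, measured 20.5, 18.5 and 19.3 RPKM in the DMSO samples and 21.6, 23.2 and 21.4 RPKM in the LEN samples. It measured 17.9, 17.5 and 17.7 RPKM in the AI-10-104 samples and 22.1, 21.3 and 20.8 RPKM in the LEN+AI-10-104 samples. The order of the conditions was that of APOL6: lowest with AI-10-104, then DMSO, and highest in the overlapping LEN and LEN+AI-10-104 samples. Mean levels were 19.4 ± 1.02 RPKM with DMSO, 22.1 ± 1.02 with LEN, 17.7 ± 0.206 with AI-10-104 and 21.4 ± 0.65 with both (SD, n = 3).

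APOL1, the secreted member, was scarce, at 6 to 29 reads per library. It measured 0.0884, 0.204 and 0.188 RPKM in the DMSO samples and 0.317, 0.283 and 0.31 RPKM in the LEN samples, which did not overlap. Of genes averaging 0.5 RPKM or more, 9.42% lay wholly higher with LEN in this way. APOL1 measured 0.0812, 0.125 and 0.2 RPKM in the AI-10-104 samples and 0.333, 0.189 and 0.151 RPKM in the LEN+AI-10-104 samples, which overlapped each other and the DMSO samples. APOL4 had 0 to 3 reads in each library and 17 reads in all, so that no library exceeded the floor of 3 reads, and no fold change is given.

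**Figure D1:**
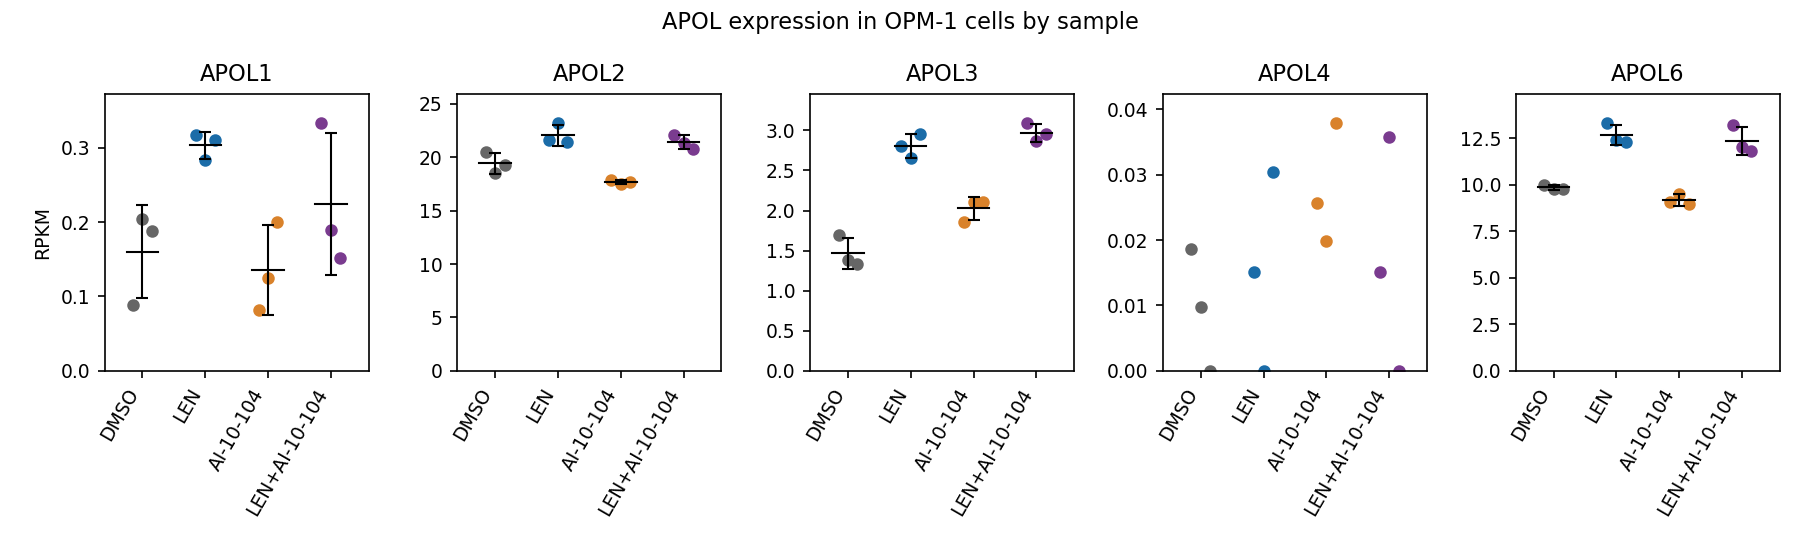
Level of each APOL gene in RPKM (vertical axes, each with its own scale starting at 0) in the 4 conditions (horizontal axes). Points are samples; black lines and bars are the mean and SD of 3 samples, left out for APOL4. The 6 samples with lenalidomide lie above the 6 without it for APOL2 and APOL6, as for 2.25% of all genes tested. They also do for APOL3, a description only, since APOL3 was picked on its rise with lenalidomide in these data. APOL1 overlaps in the presence of AI-10-104, and APOL4 stays at or under 0.0379 RPKM.

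In cells treated with AI-10-104, adding lenalidomide raised APOL3 and APOL6. APOL3 rose by 0.53 on the log2(RPKM + 0.1) scale, a fold of 1.44 (SE 0.091, 95% interval 0.33 to 0.73, adjusted p = 0.0059). Since this fit took its spread from all 12 samples, those used to pick APOL3 included, the fit of the 6 samples alone is also given, with an SE of 0.077 and an adjusted p of 0.021. APOL6 rose by 0.42, a fold of 1.34 (SE 0.050, 95% interval 0.32 to 0.53, adjusted p = 0.00075). For both genes all 3 LEN+AI-10-104 samples lay above all 3 AI-10-104 samples, as for 19% of all genes tested. The test was limma over the 11241 genes that averaged 0.5 RPKM or more, adjusted by Benjamini-Hochberg, and a gene was called at an adjusted p of at most 0.05 and a log2 change of at least 0.32 in size. Of the 2 tested members that entered by name, 1 was called higher and 0 lower, where 3.16% of all genes tested were called higher and 0.471% lower. APOL3, picked on its rise with lenalidomide, is left out of that count. The number of all genes called rested on single libraries: 355 were higher and 53 lower, against 661 and 103 without AI-10-104 replicate 2, 162 and 21 without AI-10-104 replicate 1, 186 and 27 without AI-10-104 replicate 3, and 189 and 32 without LEN+AI-10-104 replicate 1. The calls of APOL3 and APOL6 were kept when each of the 12 samples was left out in turn, with log2 changes of 0.47 to 0.56 for APOL3 and 0.37 to 0.45 for APOL6.

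APOL2 differed by less than the fold threshold. Its log2 difference was 0.27 (SE 0.045, 95% interval 0.17 to 0.37, adjusted p = 0.0053), and the 3 LEN+AI-10-104 samples were again above the 3 AI-10-104 samples, as for 19% of all genes tested, with 15.2% below. APOL1 was below the filter of the main test. With voom on reads its log2 difference was 0.73 (SE 0.373, adjusted p = 0.19), with an interval from -0.04 to 1.49. This comparison set the shallowest libraries against deeper ones, and the part of depth in it was not tested. The median log2 difference of all 11241 genes was 0.018.

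Without AI-10-104, lenalidomide raised APOL6 by 0.36 on the log2 scale, a fold of 1.28 (SE 0.050, limma adjusted p = 0.0044). All 3 LEN samples of APOL6 lay above its 3 DMSO samples, as for 9.42% of all genes tested. APOL2 was 0.18 higher (SE 0.045, adjusted p = 0.097) and did not pass the test, although its LEN samples all lay above its DMSO samples, as for 9.42% of all genes tested. The APOL3 difference, on which that gene was picked, was 0.90 (SE 0.091), which put it at place 38 of 11241 genes ordered from the most positive change. Of the 2 members tested here, 1 was called higher and 0 lower, where 0.587% of all genes were called higher and 0.0623% lower. The 66 genes called higher became 33 without LEN replicate 1 and 39 without LEN replicate 3, and the 7 called lower became 2 to 6 when single samples were left out. APOL1, on its few reads, was 1.01 higher with voom (SE 0.32, adjusted p = 0.12) and 0.66 higher when all genes above 0 RPKM were fitted (SE 0.263, adjusted p = 0.56), and neither passed.

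With RUNX inhibition alone, APOL3 was above its DMSO level while APOL2 and APOL6 were below theirs. APOL3 was 0.45 higher on the log2 scale with AI-10-104 than with DMSO (SE 0.091, a fold of 1.36), given without a test because the DMSO samples were used to pick it. APOL2 was lower by 0.13 (log2 difference -0.13, SE 0.045, adjusted p = 0.12) and APOL6 by 0.10 (log2 difference -0.10, SE 0.050, adjusted p = 0.25), and neither passed the limma test. The 3 AI-10-104 samples of APOL2 and of APOL6 lay below the DMSO samples, as for 10.2% of all genes tested, with 13.1% wholly above. Those of APOL3 lay above the DMSO samples, a description only, since its choice used the DMSO samples. Of the 2 members tested, 1 had an unadjusted p under 0.05, beside 1313 of 11241 genes higher and 1144 lower. By limma and by voom 0 were called, where limma called 0.685% of all genes higher and 1.09% lower. These 77 and 122 genes became 144 and 299 without AI-10-104 replicate 2, 48 and 71 without AI-10-104 replicate 1, and 46 and 83 without AI-10-104 replicate 3, and those lower 75 and 74 without DMSO replicate 1 or 2. The difference between APOL3 and the other genes was not tested.

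With both compounds against DMSO, APOL6 stood at the edge of the call. Its log2 difference was 0.31994 (SE 0.050, adjusted p = 0.0027), just under the threshold of 0.32, so that 0 of the 2 members tested were called by limma. Both had an unadjusted p under 0.05, beside 1678 of 11241 genes higher and 981 lower. Voom called APOL6 higher at 0.32, beside 378 of 12816 genes. The shares of all genes called were 2.3% higher and 0.641% lower. Without DMSO replicate 1 the APOL6 difference was 0.33, without LEN+AI-10-104 replicate 2 it was 0.34 and without LEN+AI-10-104 replicate 3 it was 0.35, and in each of these fits it was called. APOL2 was 0.14 higher (SE 0.045, adjusted p = 0.08), and APOL3, without a test, was 0.98 higher (SE 0.091).

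No member tested passed when AI-10-104 was added to lenalidomide. Against LEN alone, the log2 difference was -0.04 for APOL2 (95% interval -0.14 to 0.06, adjusted p = 0.65) and -0.04 for APOL6 (95% interval -0.15 to 0.07, adjusted p = 0.71). For APOL3 it was 0.08, with an interval from -0.12 to 0.28 and no test. The samples of all 5 members overlapped between these conditions, as for 73.6% of all genes tested. At an unadjusted p under 0.05 there were 0 of 2 members, beside 1427 of 11241 genes higher and 888 lower. By limma and by voom 0 were called, where limma called 0.872% of all genes higher and 0.81% lower. The 98 genes called higher became 46 without LEN+AI-10-104 replicate 1, 61 without LEN+AI-10-104 replicate 2, 53 without LEN replicate 1 and 62 without LEN replicate 3. The comparisons against DMSO share their control samples, as those against LEN and AI-10-104 share the LEN+AI-10-104 samples.

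**Figure D2:**
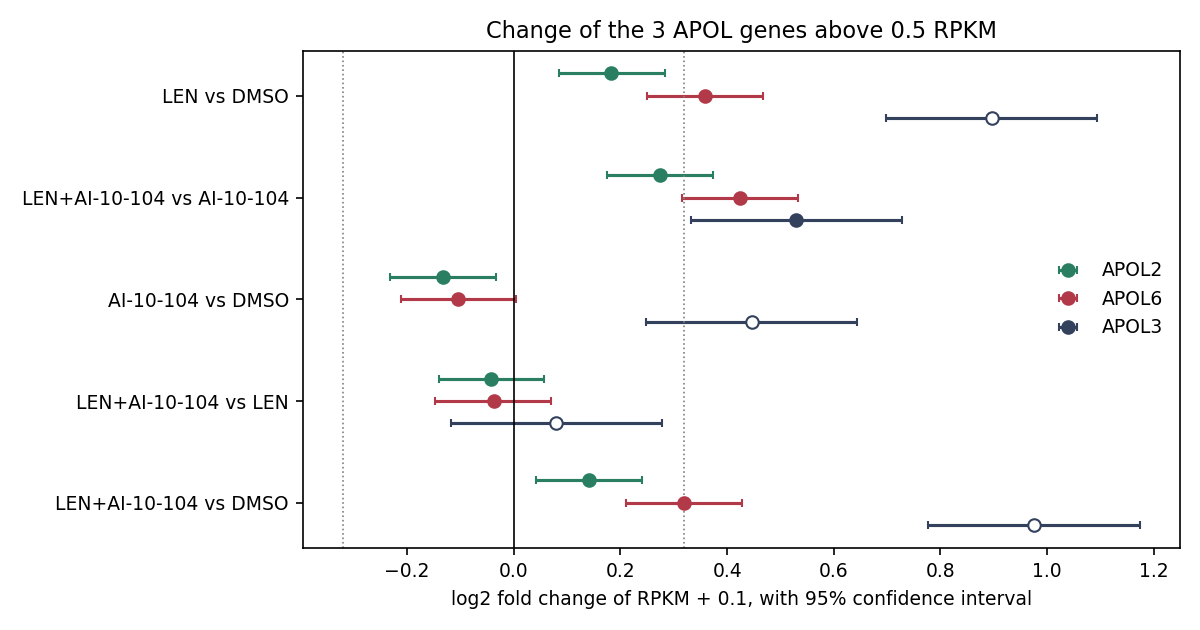
Log2 fold change of RPKM + 0.1 (horizontal axis) in 5 comparisons (vertical axis) for APOL2, APOL6 and APOL3, the members averaging 0.5 RPKM or more. Points are limma estimates with 95% confidence intervals; open points are APOL3 comparisons given without a test, and dotted lines mark changes of 0.32 in size. With AI-10-104 against DMSO, APOL3 lies at 0.45 while APOL2 and APOL6 lie at -0.13 and -0.10. The DMSO samples were used to pick APOL3, and its difference from the other genes was not tested.

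The lenalidomide effect with AI-10-104 present was set against the effect without it in an interaction term. For APOL2 the difference of the effects was 0.09 (95% interval -0.05 to 0.23, adjusted p = 0.52) and for APOL6 it was 0.07 (95% interval -0.09 to 0.22, adjusted p = 0.68). By limma 0 of 2 members passed, with 0 at an unadjusted p under 0.05 and 0 by voom, and 0% of all genes passed. Over all genes, 1016 were higher and 605 lower at an unadjusted p under 0.05, and voom passed 2 higher and 1 lower. Without AI-10-104 replicate 2, 415 genes passed as higher and 125 as lower, and without LEN+AI-10-104 replicate 3, 0 and 2. Without AI-10-104 replicate 2 the APOL2 and APOL6 differences were 0.08 and 0.09, and 0 of the 2 passed. The APOL3 effect was smaller with AI-10-104 by 0.37 (log2 difference of -0.37, SE 0.128), which is given without a test, since the DMSO and LEN samples entered it. With a pseudocount of 1 RPKM this difference was -0.24.

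The make-up of the family is described by condition, without a test. The sum of the 5 genes was 37.9 ± 0.834 RPKM with LEN and 37.0 ± 1.58 RPKM with both compounds, against 29.0 ± 0.177 RPKM with AI-10-104 (SD, n = 3). APOL3 made up 4.73% of the sum with DMSO, 7.41% with LEN, 6.97% with AI-10-104 and 8.03% with both. The ratio of APOL3 to APOL6 was 0.149 ± 0.0178 with DMSO, 0.222 ± 0.0168 with LEN, 0.221 ± 0.0153 with AI-10-104 and 0.241 ± 0.00764 with both. The 3 DMSO samples, at 0.136 to 0.169, lay below the other 9, which ran from 0.205 to 0.249. The ratio of APOL6 to APOL2 was 0.508 ± 0.0196 with DMSO and 0.518 ± 0.0228 with AI-10-104. With LEN it was 0.575 ± 0.0419 and with both compounds 0.576 ± 0.0197. The LEN samples, at 0.534 to 0.618, lay above the DMSO samples, at 0.489 to 0.528, and overlapped the AI-10-104 samples, at 0.504 to 0.545. How many other gene pairs separate in this way was not computed, and this ratio was not tested. The shares and ratios with APOL3 are descriptions, since its DMSO and LEN levels were used to pick it. That choice favours a low APOL3 ratio with DMSO.

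**Figure D3:**
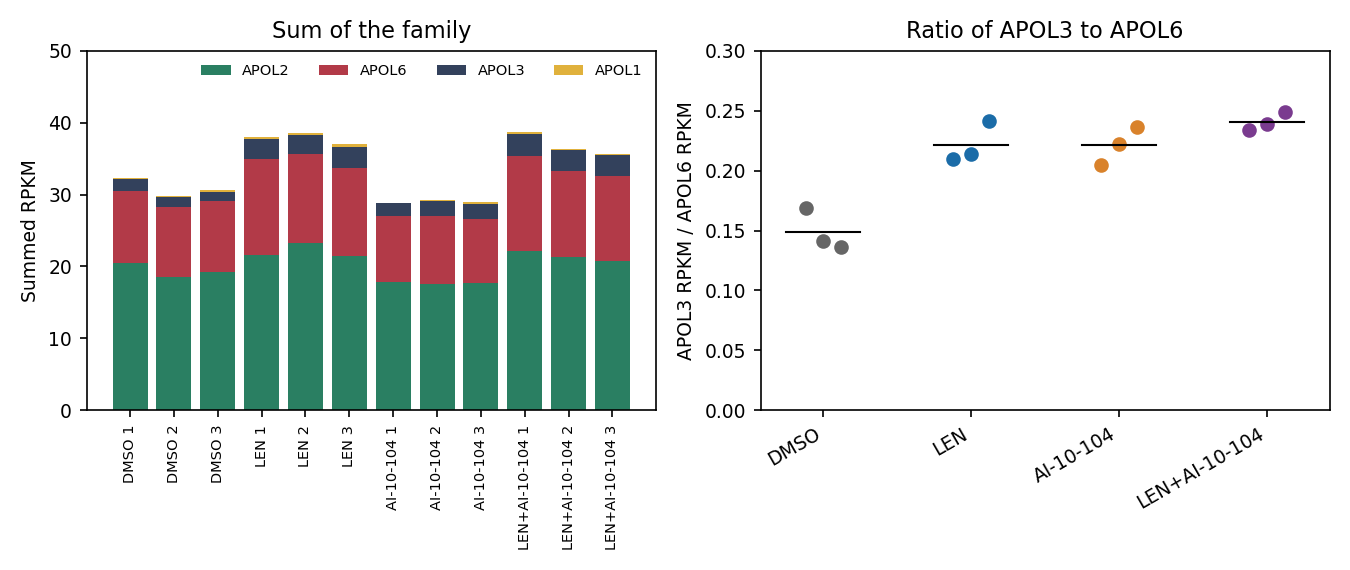
Left, summed RPKM of the APOL genes (vertical axis) in each sample, stacked by gene, with APOL4 too low to draw. Right, ratio of APOL3 to APOL6 RPKM by condition, with points for samples and lines for means of 3. The DMSO samples have ratios of 0.136 to 0.169 and all other samples 0.205 to 0.249. This is a description only, since APOL3 was picked on its DMSO and LEN levels, which favours a low ratio with DMSO.

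Over the 12 samples the course of APOL2 was closer to APOL6 than to APOL3. After each gene was centred on its own mean, the root mean square difference of log2(RPKM + 0.1) was 0.100 between APOL2 and APOL6, 0.271 between APOL3 and APOL6, and 0.332 between APOL2 and APOL3. This measure grows with the size of a change. APOL3 was picked for its rise in samples that enter it, so its larger distances are a description only. Among all genes tested, the 5 closest to APOL3 by this measure were RAPGEF3, at 0.153, ATP2B4, ID2, APOBEC3B and GLIPR2, at 0.172. ID2, an inhibitor of helix-loop-helix transcription factors, averaged 21.4 RPKM with DMSO, 38.2 with LEN, 29.0 with AI-10-104 and 43.6 with both. APOBEC3B, a cytidine deaminase, averaged 3.24, 5.04, 4.16 and 5.54 RPKM in the same order. The 5 closest to APOL6 were ITM2C, at 0.064, SLC15A4, BST2, SH3BGRL2 and PRKCB, at 0.075. BST2, the antiviral protein tetherin, averaged 161 RPKM with DMSO, 199 with LEN, 138 with AI-10-104 and 183 with both. SLC15A4, a lysosomal transporter used by Toll-like receptor signalling, averaged 19.0, 24.7, 19.2 and 25.2 RPKM.

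APOL genes are known interferon targets, and genes of that pathway were described beside them. Of 18 interferon signalling genes, 14 were tested. With lenalidomide alone 0 were called by limma or voom, beside 0.587% of all genes called higher and 0.0623% lower by limma. At an unadjusted p under 0.05, 7 were higher and 0 lower, beside 739 and 467 of all 11241 genes. The receptor subunit IFNAR2, at 82.3 RPKM over the 12 samples, had a log2 difference of -0.02, and the kinase JAK1, at 31.3 RPKM, one of 0.19 (adjusted p = 0.23). IRF1, a transcription factor induced by interferon gamma, was 0.28 higher on the log2 scale (adjusted p = 0.0027), below the fold threshold. With lenalidomide in AI-10-104-treated cells 3 of 14 were called higher and 0 lower, beside 3.16% and 0.471% of all genes: the inhibitor of JAK signalling SOCS3 (0.51), IRF1 (0.39) and IRF9 (0.35), a subunit of the interferon-stimulated transcription factor. The receptor subunits IFNAR1, IFNAR2 and IFNGR1 were not called. With both compounds against DMSO 3 were called higher (IRF8, IRF1 and JAK2), beside 2.3% of all genes. With AI-10-104 alone 0 were called, beside 0.685% of all genes higher and 1.09% lower. At an unadjusted p under 0.05, 6 were higher and 1 lower with AI-10-104 alone, beside 1313 and 1144 of all genes. Voom called 1 higher there, beside 132 of 12816 genes. The list median with lenalidomide was 0.17 without AI-10-104 and 0.09 with it, beside -0.002 and 0.018 over all genes.

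Of 30 interferon gamma-type targets 12 were tested. Lenalidomide alone raised 2 of them and lowered 0, beside 0.587% and 0.0623% of all genes: CASP1, the inflammasome protease, by 1.02 on the log2 scale, and CIITA, the master regulator of MHC class II genes, by 0.40. In AI-10-104-treated cells lenalidomide raised 5 and lowered 0, beside 3.16% and 0.471% of all genes, namely CASP1 (1.01), NMI (0.70), CIITA (0.50), BST2 (0.40) and GBP3 (0.33). By voom, which tested 16, the counts were 2 and 5, beside 122 and 441 of 12816 genes called higher. The median was 0.23 and 0.21 in these comparisons. AI-10-104 alone raised CIITA (0.51) and CXCL10 (1.06, SE 0.271, limma adjusted p = 0.05), beside 0.685% of all genes called higher. CXCL10 averaged 0.517 RPKM over the 12 samples, just above the filter of 0.5 RPKM, and was lowest with DMSO. It thus entered the test through the conditions in which it was higher. Both compounds together raised 4, beside 2.3% of all genes, and CIITA was higher with both than with LEN by 0.61, beside 0.872%.

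Of 38 interferon alpha-type targets 15 were tested. Lenalidomide alone raised 1, the RNA sensor IFIH1, by 0.38, beside 0.587% of all genes called higher. Voom, which tested 25 of the list, called 7 higher, beside 122 of 12816 genes. In AI-10-104-treated cells lenalidomide raised IFI6 (0.61) and EPSTI1 (0.54), beside 3.16% of all genes called higher. It lowered SAMD9 (-0.46), a growth-restraining antiviral protein, beside 0.471% called lower. Voom called 7 higher and 1 lower in this comparison, beside 441 and 65 of 12816 genes. The median was 0.18 without AI-10-104 and 0.23 with it. AI-10-104 alone raised IFIH1, beside 0.685% of all genes called higher. IFIH1 was also higher with both compounds than with LEN, by 0.35, beside 0.872% of all genes. Both compounds against DMSO raised IFI6, IFIH1 and EPSTI1, beside 2.3% of all genes. Voom called 11 higher in that comparison, beside 378 of 12816 genes. By limma, the 15 alpha-type targets ran from -0.31 to 0.75 with lenalidomide alone. APOL2 and APOL6, with log2 changes of 0.18 and 0.36 there, lay within this range. So wide a range holds most genes tested, so lying within it does not set APOL2 and APOL6 apart from other genes. APOL3, picked on this contrast, lay above it at 0.90. It lay within the range of the gamma-type targets tested, which ran from -0.13 to 1.02 in the same comparison.

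**Figure D4:**
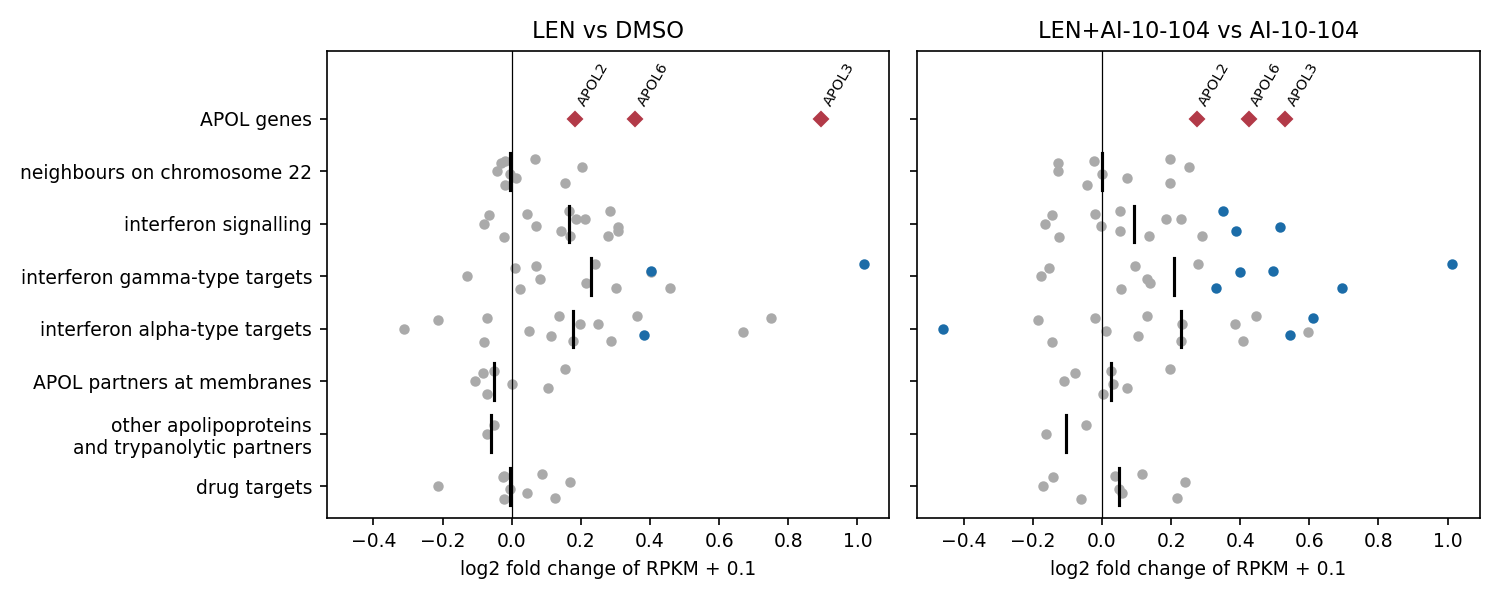
Log2 fold change of RPKM + 0.1 (horizontal axes) with lenalidomide, without AI-10-104 (left) and with it (right), for the APOL genes (diamonds) and the tested genes of 7 lists (points, 1 row per list). Blue points were called, grey points were not, and black ticks are list medians. The medians of the 3 interferon lists lie between 0.09 and 0.23, and those of the 4 other lists between -0.10 and 0.05.

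The genes around the APOL cluster were measured as well. Of 16 named neighbours on chromosome 22, 9 were tested. By limma 0 were called in each of the 5 comparisons, as by voom on 10 genes. Over all genes tested by limma, 0.587% to 3.16% were called higher and 0.0623% to 1.09% lower. With shares this low, 0 of 9 does not set the neighbours apart from other genes. At an unadjusted p under 0.05 there were 2 higher and 0 lower with lenalidomide alone, beside 739 and 467 of all 11241 genes. There were 3 higher and 1 lower with lenalidomide in AI-10-104-treated cells, beside 2195 and 1534 of all genes. The most expressed were the replication helicase subunit MCM5 and the translation factor subunit EIF3D, with log2 differences of 0.07 and -0.13 in the latter. HMOX1, heme oxygenase, and MYH9, the non-muscle myosin heavy chain gene next to the cluster, were 0.25 and 0.20 higher there (adjusted p = 0.018 and 0.028), below the fold threshold. With AI-10-104 alone, 0 were higher and 4 lower at an unadjusted p under 0.05, beside 1313 and 1144 of all genes. The 4 included HMOX1 at -0.25 (limma adjusted p = 0.035) and MCM5 at -0.23 (limma adjusted p = 0.019). With both compounds against LEN 0 were higher and 3 lower, beside 1427 and 888 of all genes. The median of the neighbours was -0.001 with lenalidomide in AI-10-104-treated cells and -0.006 with lenalidomide alone. It was 0.004 with AI-10-104 alone and -0.029 with both compounds against LEN.

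Of 8 genes whose products work with APOL proteins at membranes, such as the Golgi lipid kinase PI4KB and its activator NCS1, 7 were tested. By limma or voom 0 were called in any of the 5 comparisons. Over all genes tested by limma, 0.587% to 3.16% were called higher and 0.0623% to 1.09% lower. Such shares mean that 0 of 7 does not set these genes apart. With lenalidomide in AI-10-104-treated cells, 1 was higher and 1 lower at an unadjusted p under 0.05, beside 2195 and 1534 of all 11241 genes. The most expressed were ARF1, a GTPase of the Golgi, and PHB2, a prohibitin of the inner mitochondrial membrane, which differed by 0.03 and 0.003 in that comparison, and PI4KB differed by 0.07. Of 18 other apolipoproteins and partners of APOL1 in serum, 16 were below the filter, among them the genes of the serum lipoproteins. APOO and APOOL, mitochondrial inner membrane proteins, were tested and 0 were called by limma or voom, with 1 lower at an unadjusted p under 0.05 in that comparison.

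The genes of the drugs' targets were all measured. CRBN, which encodes cereblon, averaged 6.09 RPKM, IKZF1 14.4 RPKM and IKZF3 22.3 RPKM over the 12 samples. With lenalidomide alone 0 of 9 were called by limma or voom, beside 0.587% of all genes called higher and 0.0623% lower by limma. At an unadjusted p under 0.05, 2 were higher and 1 lower, beside 739 and 467 of all 11241 genes. The most expressed, IRF4 and MYC, differed by -0.02 and -0.21. With AI-10-104 alone RUNX1 fell by 0.34 on the log2 scale (limma adjusted p = 0.0087), beside 1.09% of all genes called lower. IKZF3, at -0.30 (limma adjusted p = 0.007), did not reach the fold threshold. These are RNA levels, while lenalidomide acts on the IKZF1 and IKZF3 proteins.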

How the data were processed

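OPM-1 RNA-seq was analysed in 12 samples grouped by their titles, 3 per condition; the numbered samples are described by the study as independent experiments. The submitters' processing notes name FastQC, STAR, Cuffnorm and DESeq2 and the GRCh38 build. The authors deposited 1 table of RPKM per gene with gene lengths in bases, per the file headers (its name says FPKM, as did the analysis plan). Values were whole multiples of 1 read for 100% of entries (tolerance 0.1 read), so reads were computed back; floors of 3 reads cover counting error only. The table also held 28 rows with gene names turned into dates, which have no bearing on the members.

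Testing used limma 3.58.1 in R 4.3.3 for genes averaging 0.5 RPKM or more. Values entered as log2(RPKM + 0.1), fitted with a mean for each condition over all 12 samples, a variance trend and Benjamini-Hochberg adjustment; the script was tested on simulated data. Such fold changes understate the change of low genes. A gene was called where the adjusted p was 0.05 or less and the log2 change 0.32 or more in size (interaction: adjusted p alone). Figures used Python 3.11.15 and matplotlib 3.10.9.

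The members, the 7 gene lists and the tests were chosen with earlier results of these data known, so the interferon lists are no independent evidence of direction. Named genes were the members, the 5 genes nearest to APOL3 and to APOL6 in root mean square difference, and up to 4 genes per list and comparison, the called genes with the largest change or else the most expressed. GBP3, IRF1, IFNAR1 and IFNGR1, HMOX1, MYH9, PI4KB, CRBN, IKZF1 and IKZF3 were named beyond that rule, after their values were seen. One gene that the rule names is not reported here. Same-numbered samples deviated together in part only (mean correlation 0.0522 over 18 pairs, from -0.0272 to 0.155), so numbers were not taken as pairs. Alternatives were pseudocounts of 1 and 0.01, other filters, median-ratio and quantile scaling, other fits, voom on reads (mean of at least 10 reads), a replicate block, leaving out each sample, and GENCODE exon lengths.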

Additional observations from a re-analysis of the deposited data

How the results depend on the processing

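Among the counts of members called, the one that moved was with both compounds against DMSO: 0 as reported and 1 (APOL6) with a pseudocount of 0.01 RPKM, with voom on reads and by adjusted p alone, and from 0 to 1 when samples were left out (1 without DMSO replicate 1, LEN+AI-10-104 replicate 2 or LEN+AI-10-104 replicate 3). The APOL6 difference there ran from 0.27 to 0.35 over the left-out samples, on both sides of the threshold of 0.32. The other 130 counts of members called were within 1.5 times, of which 1 differed (by adjusted p alone, 3 members, APOL2 included, with lenalidomide in AI-10-104-treated cells). No direction reversed in any fit. With a replicate block the count was 2 for lenalidomide in AI-10-104-treated cells (APOL3 included), 1 for lenalidomide alone and 0 elsewhere, so the block changed no call. APOL3 in AI-10-104-treated cells was called in 10 of 10 other fits, at 0.39 to 0.55 and adjusted p of 0.00024 to 0.021. A pseudocount of 1 RPKM lowered the APOL3 differences to 0.63 (LEN), 0.30 (AI-10-104) and 0.69 (both) against DMSO and the interaction to -0.24, and APOL1 with LEN was 0.66 or, by voom, 1.01. GENCODE exon lengths gave APOL2 22.5 and APOL6 10.1 RPKM with DMSO, in the same order. Depth limited APOL1 and APOL4, and the planned motif count in promoters was not run.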
